A study of Homo sapiens with 4 samples.

Results

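Regions of open chromatin that were detected in H1 human embryonic stem cells after Activin A, and in none of the other groups of the series, are described here. They were chosen by the presence of peaks. Peaks of the 4 deposited lists that overlapped or touched were joined into 87966 regions, and a region was kept when the Activin A list had a peak in it and the control, Wnt3a and combined lists had none. This gave 26500 Activin A only regions, 36.2% of the 73116 regions with an Activin A peak (95% interval 35.9 to 36.6). The presence of peaks is therefore the definition of these regions and not a finding about them.

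All 4 groups used H1, an established embryonic stem cell line, on Matrigel without feeder cells, with 1 ATAC-seq library each. Cells received Activin A at 25 ng/ml, Wnt3a at 25 ng/ml, or Activin A and Wnt3a together at 25 ng/ml each, for 6 h in B27 medium. The control, cultured in parallel, had no added ligand and stayed in N2B27 medium with bFGF, so ligand and medium cannot be told apart in a comparison with control. The Activin A and the combined group shared the medium and the Activin A dose and differed by Wnt3a. With 1 library a group there is no replicate error and no test between groups. The 95% intervals are exact binomial (Clopper-Pearson) and cover counting error only. The number of reads behind each list was not given in the sources used here.

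ATAC-seq uses a transposase that cuts where DNA is not wrapped tightly in nucleosomes, so a peak marks exposed DNA. Promoters, enhancers and other regulatory sites are often exposed, but whether the regions described here are such sites was not tested. Activin A binds type I and type II receptor kinases, which phosphorylate SMAD2 and SMAD3. These join SMAD4 and act on chromatin with partner factors such as FOXH1. In human embryonic stem cells, the pathway both maintains pluripotency and, with Wnt signalling, starts differentiation towards mesendoderm. No gene annotation or sequence on hg19, the build of these peaks, was used here, only cytogenetic bands and chromosome lengths. The regions are therefore described by position, score, width and neighbours. No region was assigned to a gene or searched for SMAD or FOXH1 motifs, and the cell type was not checked against its marker genes. Genes named below with a band only help to place that band, and their distance to a region was not measured.

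Activin A only regions were mostly weak peaks. The score of a peak is the authors' value from their peak caller and is used here only within the list it comes from. Activin A only regions had a median score of 71.7, with quartiles of 61.4 and 90.7. The median was 109 for the 19261 regions found after Activin A and after both ligands alone, and 444 for the 13016 regions found in all 4 lists. The median Activin A only region stood at the 25.1 percentile of the Activin A list, and the median region of all 4 lists at the 90.3 percentile. Each Activin A only region held 1 peak. The other Activin A regions fell into 831 shared with Wnt3a only, 4613 shared by all 3 treatments, 1335 shared with control only, 7412 absent from Wnt3a only and 148 absent from the combined list only. Median scores in these ranged from 91.3 (control and Activin A) to 195 (all but Wnt3a).

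**Figure D1:**
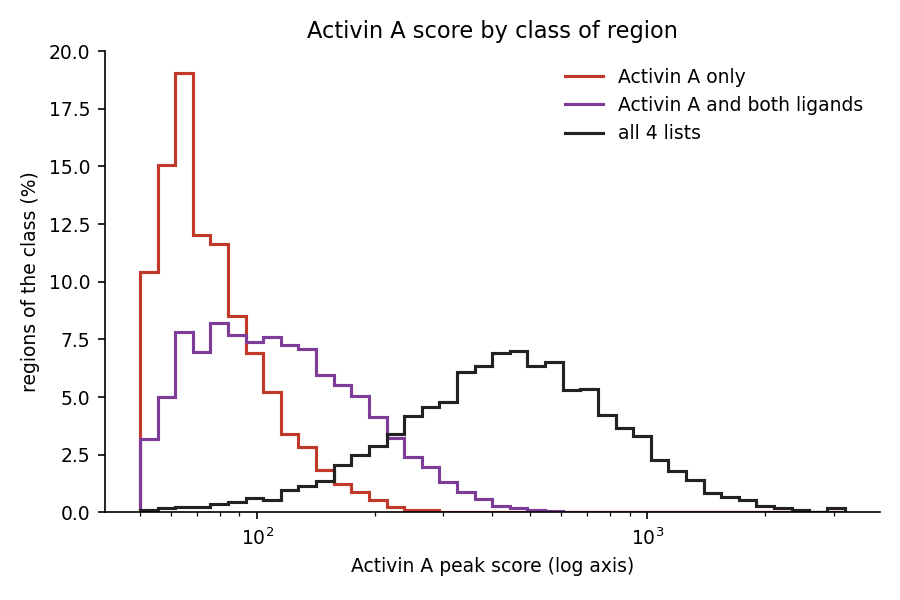
Distribution of the Activin A peak score (x axis, log scale) in 3 classes of region, as the percentage of each class per score interval (y axis). The Activin A only regions gather between 50 and 100 around their median of 71.7, and the regions of all 4 lists around 444, with regions shared only with the combined list between them.

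The peaks of a list were divided by rank of score into 10 classes of like size, from class 1 (lowest) to class 10 (highest). The share of Activin A regions found after Activin A only fell with every class. It was 76.2% (75.2 to 77.1) in class 1, with 5521 of 7249 regions, and 45.9% (44.7 to 47.0) in class 5. It was 4.79% (4.32 to 5.31) in class 8 and 0.579% (0.420 to 0.780) in class 9. In class 10, 1 of 7514 regions was Activin A only (0.0133%, 0.000337 to 0.0741), while 89.1% of the regions there were present in all 4 lists. The lists differ in length, which bears directly on how often a peak is found in no other list. Regions found in 1 list only made up 19.4% of the 56055 regions of the combined list, 9.05% of the 24769 control regions and 4.15% of the 19801 Wnt3a regions. The same fall with score was present in the combined list, from 52.4% (51.1 to 53.7) in its class 1 to 0 of 5810 regions in its class 10, which allows a share of up to 0.0635%. In each of classes 1 to 9 the Activin A list had the highest share of the 4. Every list was also reduced to as many of its best peaks as the shortest list held. By the same definition, 2062 regions were then Activin A only, 9.94% (9.54 to 10.4) of the Activin A regions left. Most of these 2062 were not among the 26500, because another full list had a peak there. The part of sequencing depth was not tested.

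**Figure D2:**
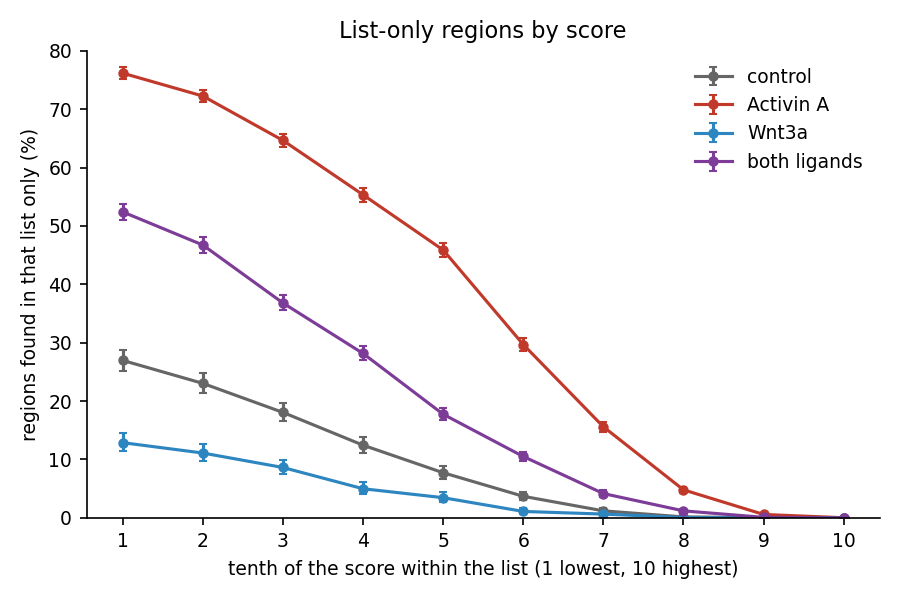
Percentage of the regions of each list found in no other list (y axis) by class of the score within that list, 1 lowest to 10 highest (x axis). Points are shares and bars exact 95% intervals. The Activin A series falls from 76.2% to 0.0133%, and the combined series from 52.4% to 0.

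By the definition used, few of the stronger Activin A peaks were without a counterpart in another list. Of the 18613 regions in the top 25% of Activin A scores, at or above 215, 132 were Activin A only (0.709%, 0.594 to 0.840). In the top 10%, at or above 435, there was 1 of 7515. The combined list had 15 of 14437 regions of its own in its top 25% (0.104%, 0.0582 to 0.171) and none of 5811 in its top 10%. The 132 strong Activin A only regions had a median score of 245 and a median width of 876.5 bp. The 11348 other strong regions up to the same highest score were wider, with a median of 1052 bp, and also had a higher median score of 299. By number, the strong Activin A only regions were most frequent on chromosome 1 (17 of 1968 strong regions) and chromosome 19 (13 of 1241). As a share of strong regions, chromosome 18 stood higher, with 5 of 299, though on few regions. The count of 132 depends on what is taken as shared. It was 2236 when the combined list was left out, 180 without the Wnt3a list and 187 without the control list. It rose to 1087 when a shared region needed an overlap of 50% of each peak, and to 397 with 500 bases around each peak centre. With all lists reduced to equal length it was 1361 at the same score threshold, most of the 2062 regions that were Activin A only there. Most of the 1361 had a peak in another full list.

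The strongest Activin A only region was chr18:59559780-59562233 in band 18q21.33, the band that also holds the anti-apoptotic gene BCL2. Its score of 449 placed it at the 90.5 percentile of the Activin A list, and at 2454 bp it was the widest of the Activin A only regions. The nearest peaks of the other lists lay 6.18 kb away in the combined list (score 110 there), 255 kb away in the Wnt3a list and 292 kb away in the control list. The locus was thus without a peak over a long stretch in control and Wnt3a, whereas the combined list had a peak nearby. The score of that combined peak was above the median of its own list (94.3).

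The next in score was chr19:36468267-36469157 in 19q13.12, with a score of 374 and a width of 891 bp. It was followed by chr2:95824474-95826189 in 2q11.1 (score 370), a band of the centromere type, where reads are harder to place. The region chr10:734634-736393 in 10p15.3 (score 365) lay 0.736 Mb from the end of the short arm. The nearest peaks of the other lists were 63.6 kb (combined), 63.7 kb (control) and 88.2 kb (Wnt3a) from it. All 4 other Activin A regions within 50 kb were Activin A only as well, so this stretch was seen in 1 library alone. The fifth was chr11:2465079-2467211 in 11p15.5, the band of the imprinted IGF2 and H19 genes, with a score of 360 and a width of 2133 bp. Its nearest combined peak was 22.4 kb away and its nearest control peak 42.8 kb away.

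The regions of rank 6 to 10 had scores from 360 to 330. They were chr10:45474135-45474814 (10q11.21), chr18:3623648-3624661 (18p11.31), chr18:47375946-47376581 (18q21.1), chr2:241506752-241508948 (2q37.3) and chr22:38220314-38221671 (22q13.1). The one in 2q37.3 was 2197 bp wide and had other peaks close by, at 318 bp in the combined list and 441 bp in the Wnt3a list. The one in 18p11.31 lay 112 bp from another Activin A region but 19.2 kb from the nearest combined peak. That combined peak had a score of 795.

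The last of the 15 strongest had scores from 323 to 306. They were chr1:42366863-42368489 (1p34.2), chr6:149771410-149773285 (6q25.1), chrX:19905404-19906978 (Xp22.12), chr16:1820250-1822580 (16p13.3, the band of the alpha-globin genes) and chr19:1070506-1071871 (19p13.3). The region in Xp22.12 was isolated, with its nearest Activin A and combined peaks both 45.7 kb away. The region in 16p13.3 was not, since a combined peak lay 97 bp and a control peak 524 bp from it. Of these 15 regions, 6 lay within 5 Mb of a chromosome end and 7 were over 10 kb from the nearest combined peak. Of all 132 strong Activin A only regions, 26 (19.7%, 13.3 to 27.5) lay within 5 Mb of an end. The share was 12.0% (11.6 to 12.5) for the other strong regions. These shares are not at equal score, since the median scores were 245 and 382. A combined peak lay within 10 kb of 53.8% of the 132, and of 51.5% of all Activin A only regions. The 15 had a median width of 1627 bp, against 1156 bp (quartiles 928 and 1460) for the 5296 other Activin A regions of the same score range.

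By width, the leading regions after the one in 18q21.33 were chr6:35440731-35443107 (6p21.31, 2377 bp, score 278), 16p13.3 (2331 bp), 2q37.3 (2197 bp) and 11p15.5 (2133 bp). The region in 6p21.31 lay 22 bp from a combined peak. Over all Activin A only regions the median width was 578 bp (quartiles 502 and 662). Regions shared with the combined list only had a median of 665 bp and those of all 4 lists 1205.5 bp. Width followed score. In score class 1, Activin A only and other Activin A regions both had a median of 566 bp. In class 5 the medians were 619 and 675 bp, and in class 8 they were 790 and 890 bp. The order was the reverse in class 9, with 1169 and 1105 bp, where 43 regions were Activin A only. The 1 Activin A only region of class 10 had 2454 bp, against a median of 1445 bp.

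Peaks of the other lists lay within 10 kb of 14376 Activin A only regions (54.2%, 53.6 to 54.9), and the median gap to the nearest of them was 8.33 kb. The gap to the nearest combined peak had a median of 9.37 kb, against 25.1 kb for control and 33.6 kb for Wnt3a, lists with fewer peaks. A peak of any other list lay within 1 kb of 3659 Activin A only regions (13.8%, 13.4 to 14.2). A combined peak lay that near to 3312, which is 12.5% (12.1 to 12.9) of all Activin A only regions. At the other extreme, 1122 regions had no peak of any other list within 100 kb. Among the 132 strong regions, 27 (20.5%, 13.9 to 28.3) had a combined peak within 1 kb. In the reverse direction, 1801 of the 10890 regions found with both ligands only (16.5%, 15.8 to 17.2) had an Activin A peak within 1 kb.

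**Figure D3:**
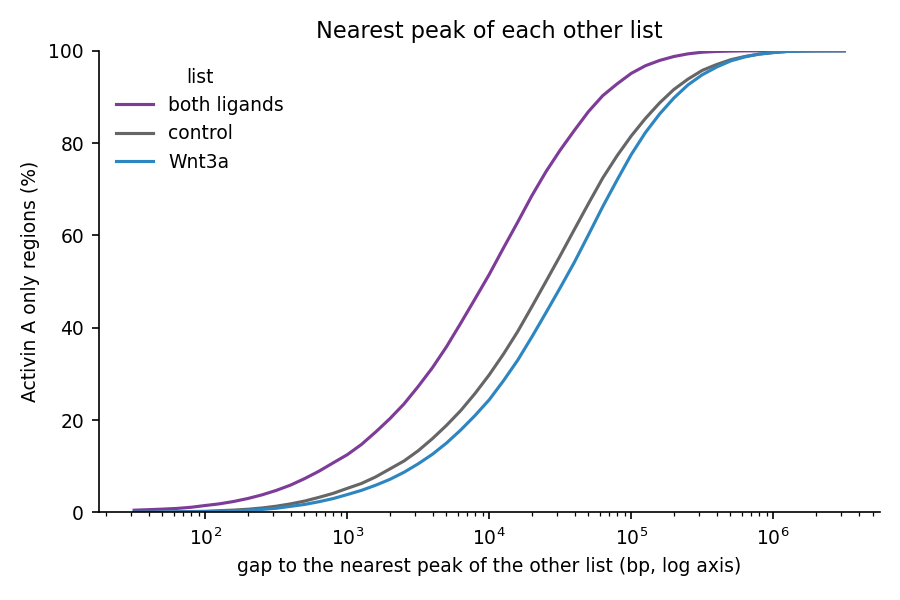
Cumulative percentage of the 26500 Activin A only regions (y axis) by the gap to the nearest peak of each other list (x axis, bp, log scale). The combined list, the longest of the 3, is nearest with a median of 9.37 kb, and Wnt3a farthest with 33.6 kb.

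At the edge of the definition, 3 regions missed another list's peak by a gap of 1 bp. These were chr15:101458985-101459542 (15q26.3, score 55.9, next to a control peak), chr19:37463136-37463792 (19q13.12, 78.2, next to a combined peak) and chr1:15649775-15650501 (1p36.21, 92.9, next to a Wnt3a peak). A gap of 2 bp separated chr2:237071662-237072258 (2q37.2, 62.9) and chr16:116331-116965 (16p13.3, 69.9) from combined peaks. Just outside it, chr12:67354319-67355032 (12q14.3, 64.95) and chr7:156735083-156735629 (7q36.3, 56.6) shared 1 bp with a combined peak. An overlap of 2 bp was seen for chr1:32045128-32045700 (1p35.2, 55.0) and chr16:4439380-4440164 (16p13.3, 69.9) with a combined peak, and for chr21:44830098-44830768 (21q22.3, 118.7) with a control peak. The scores in brackets are those of the Activin A peaks. Within 100 bp of another list's peak lay 473 Activin A only regions (1.78%).

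Most Activin A only regions had another Activin A region close by. Another Activin A region was within 10 kb of 59.8% of them (59.2 to 60.3), against 62.4% (62.0 to 62.8) of the remaining Activin A regions. At equal score the difference was 3.43 percentage points or less in each of the 8 lower classes. Activin A only regions had the lower share in 7 of these classes and the higher share in 1. Class 7 had 61.7% (58.8 to 64.5) and 65.1% (63.9 to 66.3), and class 1, the exception, had 64.4% (63.1 to 65.7) and 63.4% (61.1 to 65.7). Where an Activin A only region had such a neighbour, the neighbour was also Activin A only in 37.5% of cases (36.7 to 38.3), and the neighbours' scores alone gave 36.7%. For the remaining Activin A regions these values were 34.6% (34.1 to 35.2) and 35.5%. Read along all merged regions, 12539 Activin A only regions (47.3%) had a region of another class on both sides, and 7506 (28.3%) stood in pairs. The longest unbroken run held 11 regions over 42.2 kb at chr1:22196308-22238529 in 1p36.12, with scores from 53.6 to 135. Runs of 10 stood at chr1:245676231-245906654 (1q44) and chr18:77154977-77245719 (18q23).

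The regions were spread over the genome. Of 3113 windows of 1 Mb, 2756 (88.5%) held at least 1 Activin A only region, and the median window held 6. The window from 139 to 140 Mb of chromosome 9 held the most, 59, in 9q34.3, the band of NOTCH1. The windows from 1 to 2 Mb of chromosome 19 (19p13.3) and of chromosome 16 (16p13.3) held 55 and 46. The windows from 4 to 5 Mb of chromosome 19 (19p13.3) and from 46 to 47 Mb of chromosome 21 (21q22.3, the band of the collagen genes COL6A1 and COL18A1) held 45 each. These windows also had many other Activin A regions. The 59 regions in 9q34.3 were 47.2% (38.2 to 56.3) of the 125 Activin A regions there, against 39.1% given by the scores of those regions. In all 5 windows the share given by scores was inside the observed interval.

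The share expected from scores was used throughout for position. It is the sum, over the Activin A regions of a place, of the genome-wide Activin A only share of their score class. By chromosome, the Activin A only share ran from 29.98% on chromosome 19 to 41.9% on chromosome 21. After chromosome 21 it was highest on chromosomes 18 (40.2%), 5 (39.2%), 20 (38.9%) and X (38.5%), and after chromosome 19 it was lowest on chromosomes 17 (31.7%), Y (31.9%), 14 (34.5%) and 12 (34.5%). Scores gave most of this order. The expected shares were 28.7% for chromosome 19 and 39.4% for chromosome 21. On 1 of 24 chromosomes, chromosome 17, the expected share (33.7%) was outside the observed interval (30.2 to 33.3).

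Most bands lay near their expected share. Among the 546 cytogenetic bands with at least 50 Activin A regions, the ratio of observed to expected Activin A only regions lay between 0.8 and 1.2 in 488. The expected share was outside the observed 95% interval in 18 (3.30%). The observed share was the higher in 10 of these and the lower in 8. A 95% interval for each of 546 bands can leave this many outside by counting error alone. The bands named here are thus the extremes of a ranking. The lowest ratio was in 6p22.2, where 8 of 74 regions were Activin A only (10.8%, 4.78 to 20.2) against an expected 27.5%. The adjacent 6p22.1 had 38 of 184 (20.7%, 15.05 to 27.2) against 32.1%. Both bands hold genes of the main human histone cluster. In the combined list, regions found with both ligands only were 12.99% (6.41 to 22.6) in 6p22.2 and 16.96% (11.7 to 23.4) in 6p22.1, and the scores gave 11.4% and 15.7%, ratios of 1.13 and 1.08. The control and Wnt3a lists had few list-only regions there, and all their ratio intervals included 1. Control only regions had ratios of 0.462 (0.0564 to 1.57) in 6p22.2 and 0.470 (0.0979 to 1.33) in 6p22.1. Wnt3a only regions numbered 0 of 36 and 1 of 64, against 2.11 and 2.70 expected. The Wnt3a ratio intervals were 0 to 1.66 and 0.00937 to 1.99. Among Activin A peaks in the top 50% of scores, the ratios were 0.456 (0.0556 to 1.56) and 0.782 (0.365 to 1.43), with intervals that include 1. The other low bands were 1q21.1 (8 of 57 regions, ratio 0.524), 3q13.2 (15 of 64, 0.650) and 11q12.3 (20 of 93, 0.717), the last with its expected share inside the interval. Among peaks in the top 50% of scores the ratio of 3q13.2 was 1.09.

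The highest ratios were in 1q23.2 (24 of 68 regions, 1.41), 5q13.3 (38 of 80, 1.35), 3p25.2 (38 of 75, 1.33), 10p15.3 (40 of 75, 1.32) and 7q31.1 (59 of 108, 1.32). Only the first of these had its expected share inside the observed interval. The band 10p15.3 is the tip of the short arm of chromosome 10 and holds the fourth strongest Activin A only region.

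**Figure D4:**
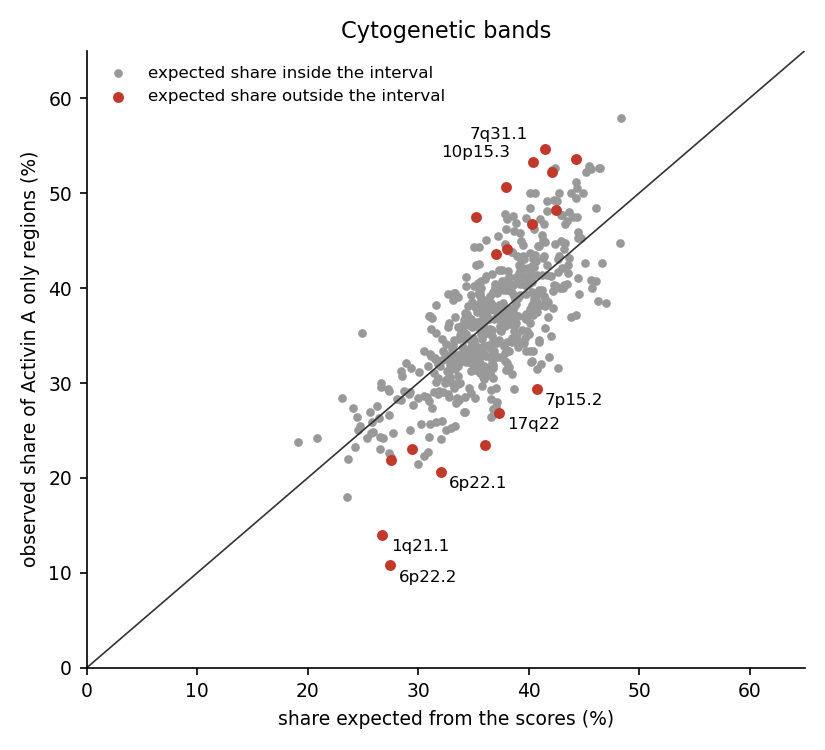
Observed percentage of Activin A regions that were Activin A only (y axis) against the percentage expected from their scores (x axis) for 546 bands, with the line of equality. Red points are the 18 bands whose expected share lies outside the observed 95% interval, a number that counting error alone can give. The lowest is 6p22.2 at 10.8% against 27.5%.

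Activin A only regions were somewhat more frequent near chromosome ends than their scores gave, and regions found with both ligands only were less frequent. Within 5 Mb of an end, 3725 of 9209 Activin A regions were Activin A only (40.4%, 39.4 to 41.5), against 37.5% expected from scores, a ratio of 1.08 (1.05 to 1.11). Within 2 Mb the ratio was 1.09 (1.05 to 1.14). In the combined list, the ratio for regions found with both ligands only was 0.889 (0.843 to 0.937) within 5 Mb and 0.821 (0.752 to 0.893) within 2 Mb. In control, the ratio for control only regions was 1.13 (1.02 to 1.25) within 5 Mb, and in Wnt3a that for Wnt3a only regions was 1.00 (0.822 to 1.21). As plain shares, 14.1% (13.6 to 14.5) of Activin A only regions lay within 5 Mb of an end, against 10.5% (9.94 to 11.1) of both ligands only regions, 14.6% (13.15 to 16.1) of control only regions and 12.3% (10.1 to 14.7) of Wnt3a only regions. The share was 11.8% (11.5 to 12.1) for the remaining Activin A regions and 10.5% (9.94 to 11.003) for regions of all 4 lists. Among the 38 bands at a chromosome end, 32 had a ratio over 1 (84.2%, 68.7 to 94.0), against 217 of the 508 other bands (42.7%, 38.4 to 47.1). The comparisons by chromosome end were chosen after the band values were seen.

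The stain of bands is dark where DNA is rich in A and T and poor in genes. Activin A only regions lay in light bands (gneg) in 58.1% of cases (57.5 to 58.7), close to the 58.9% (58.5 to 59.4) of the remaining Activin A regions. Regions found with both ligands only did so in 53.8% (52.9 to 54.8). In the darkest bands (gpos100), the ratio of observed to score-expected regions was 1.02 (0.988 to 1.05) for Activin A only and 1.22 (1.16 to 1.28) for both ligands only. In the next darkest (gpos75) it was 0.990 (0.959 to 1.02) and 1.18 (1.12 to 1.23). For Activin A only regions the ratio was 1.01 (0.994 to 1.02) in gneg, 1.00 (0.972 to 1.03) in gpos25 and 0.966 (0.941 to 0.992) in gpos50, the last with an interval below 1. For regions found with both ligands only it was 0.945 (0.924 to 0.967), 0.923 (0.872 to 0.976) and 1.03 (0.982 to 1.07). The base composition of the libraries was not measured here, and its part in these values was not tested.

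**Figure D5:**
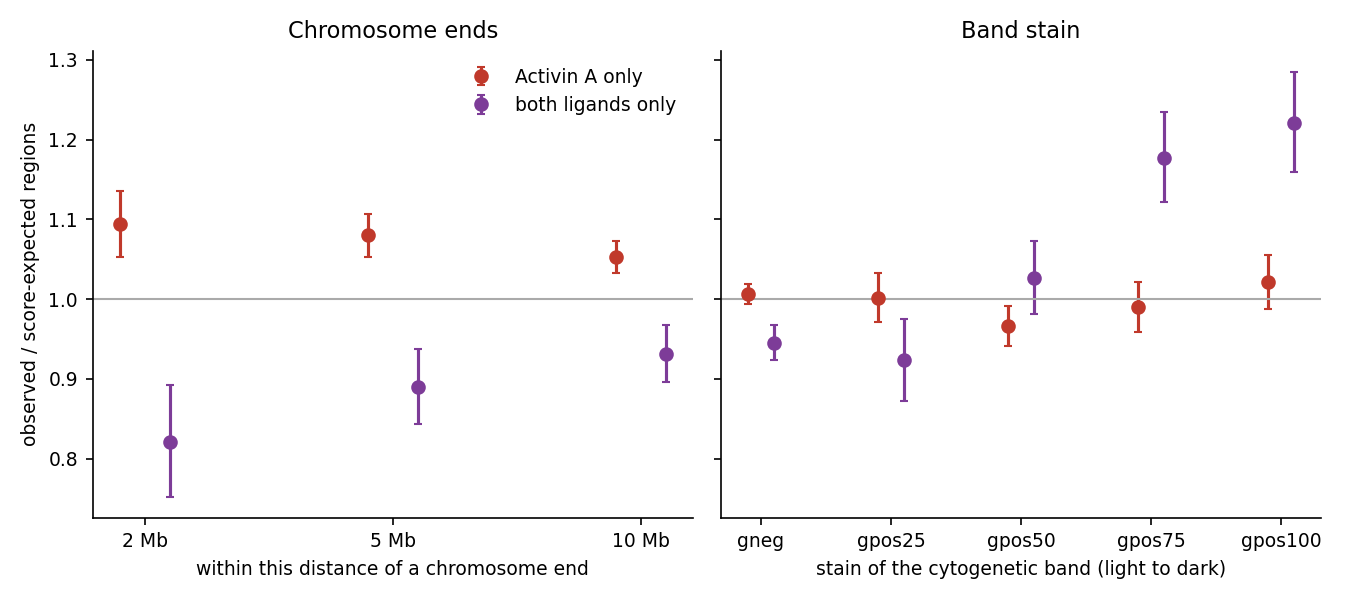
Ratio of observed to score-expected list-only regions (y axis) by distance to a chromosome end (left) and by band stain from light to dark (right), for Activin A only and both ligands only regions. Points are ratios, bars follow from exact 95% intervals, and the grey line is 1. Near ends the Activin A values lie above 1 and the combined values below it, and in gpos75 and gpos100 bands the combined values lie at 1.18 and 1.22.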

How the data were processed

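Each of 4 ATAC-seq libraries was represented by a deposited peak list with 5 columns, including chromosome, start, end and a score, with peak names in the style of MACS per the files. The submitters' processing notes name CASAVA 1.8, Bowtie2 2.2.2 and the build hg19. Caller version, settings, read shift, duplicate removal and depth are not given in the sources used here, and each could change which weak peaks were listed. Peak scores are deposited values of the authors, used unchanged. Other deposited columns used are start and end positions in bases.

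Peaks overlapping by at least 1 base, or book-ended, were merged. Scores were ranked within a list and divided into 10 classes. Gaps run from region edge to peak edge. Coordinates count from 1. Chromosome lengths and hg19 bands came from the GenomeInfoDb and circlize packages. Merging and ratios were tested on simulated data. Python 3.11.15, numpy 2.4.6, pandas 2.3.3, scipy 1.17.1 and matplotlib 3.10.9 were used.

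The members, measures and lists were chosen with earlier results of these data known. Named regions were the 15 highest scores, the 5 widest peaks, the 5 fullest 1 Mb windows, the 5 chromosomes and 5 bands at each extreme, and the 5 nearest to the rule on either side. Promoter, GC, motif and gene list analyses needed hg19 annotation or sequence, which was not used here. Alternatives covered overlap, absence distance, width, scores, list length, chromosomes, bands and lists.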

Additional observations from a re-analysis of the deposited data

How the results depend on the processing

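A count was called moved at a change of over 1.5 times, and any other value when it left its 95% interval. Of 58 alternative values of the main results 25 stayed and 33 moved. Restriction to autosomes moved none of those it was applied to. The number of Activin A only regions, 26500, became 3684 in the top 50% of scores and 45761 without the combined list. With lists of equal length it was 2062, most of them not among the 26500. The share of 36.2% became 40.8% with an overlap of 50% of each peak, 34.5% with peaks within 500 bases merged, 31.2% with no other peak within 1 kb, 37.4% with 500 bases around each centre, 10.01% in the top 50% of scores, 9.94% at equal length, and 37.4% (37.38), 38.1% and 62.6% without the Wnt3a, control and combined lists. The number of strong regions, 132, became 1087 with an overlap of 50% and 397 with 500 bases around centres. It was 1361 at equal length and 2236 without the combined list, and 1 and 3684 at the top 10% and 50% of scores. With no other peak within 1 kb, the median width was 575 bp, 54.3% had an Activin A region within 10 kb and 57.1% were in light bands. With peaks within 500 bases merged these were 576 bp, 54.9% and 57.3%. In the top 50% of scores they were 705 bp, 60.6% and 59.2%. The share near another Activin A region was 44.1% at 5 kb and 90.5% at 50 kb, and that near another list's peak 8.26% at 500 bases and 38.5% at 5 kb. These follow from the stricter or looser settings. For the chromosome ends, the ratio was 1.05 within 10 Mb. Bands outside their interval numbered 7 of 258 in the top 50% of scores, where the ratio of 3q13.2 turned from 0.650 to 1.09 (0.230 to 2.91). Of the other 60 values for named chromosomes and bands, 45 stayed and 14 moved.

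Leaving out centromeric, variable and stalk bands from the counts, all comparisons by chromosome end, at 5 Mb as at 2 and 10 Mb, and the use of score fiftieths were chosen after seeing the data. Promoter, GC and motif results and their alternatives were not run. Depth is unknown, and absence of a weak peak from a shorter list can depend on it. No paired analysis was possible because 1 library was analysed for each condition.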

Other observations

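Scores of Activin A only regions repeated. The 26500 regions held 4336 distinct scores, and the 46616 other Activin A regions held 20756. These numbers were not compared at equal score, and Activin A only scores lay mostly in a narrow low range (quartiles 61.4 and 90.7). The commonest score was 67.69, shared by 473 Activin A only regions (1.78%) and 168 other Activin A regions. It was followed by 78.73 with 377 and 158, 90.17 with 212 and 107, and 101.98 with 118 and 66.

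In centromeric bands (acen), 61 of 200 Activin A regions were Activin A only (30.5%, 24.2 to 37.4), against 32.7% expected from scores. Control only regions were more frequent there than their scores gave, 15 of 110 control regions (13.6%, 7.84 to 21.5) against 6.90%, and so were Wnt3a only regions, 8 of 98 (8.16%, 3.59 to 15.5) against 2.96%. In 1q21.1, where Activin A only regions were few, control only regions were 7 of 43 (16.3%, 6.81 to 30.7) against 6.22%.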
